A study of Homo sapiens with 2 samples.

Results

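The CADM and nectin genes encode cell adhesion proteins of the immunoglobulin superfamily, and 10 of them were examined here: CADM1, CADM2, CADM3, CADM4, NECTIN1, NECTIN2, NECTIN3, NECTIN4, PVR and CRTAM. They were chosen by name from the 20163 protein-coding genes of the annotation, with earlier results of these data known. Their CpG dinucleotides were those within 2000 bp of any annotated transcription start site (TSS) or inside the gene. This gave 16085 of the 28217009 nuclear CpG dinucleotides listed, and 13292 of them had more than 5 reads in both lines and are called covered below. The lines are 2 established human acute myeloid leukemia (AML) cell lines, OCI-AML3, which carries a heterozygous missense mutation in the catalytic domain of the de novo DNA methyltransferase DNMT3A, and OCI-AML5, wild type for DNMT3A. Per the study's methods, both were cultured by the supplier's specifications. Each was represented by 1 library of whole-genome bisulfite sequencing, in which unmethylated cytosines are converted and methylated ones are still read as cytosine. The lines come from different donors, so the DNMT3A genotype and any other difference between them cannot be told apart, and every test below compares 2 libraries rather than 2 conditions.

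CADMs and nectins stand on the surface of neighboring cells and bind each other across the gap, in pairs of the same or of different members, and their cytoplasmic tails connect to the actin skeleton and to scaffold proteins. Several members are also ligands of receptors on lymphocytes: CADM1 is bound by CRTAM, and PVR and NECTIN2 are bound by receptors that raise or lower the killing of target cells. CADM1 is known as a tumor suppressor whose promoter is often methylated in carcinomas.

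In all, 902802339 calls were listed for OCI-AML3 and 894828667 for OCI-AML5, with a median of 27 and 30 calls per nuclear CpG, so that 3 methylated calls at a CpG of median depth correspond to 11.1% and 10.0%. The mean level of all 24454751 tested CpG dinucleotides was 67.6% in OCI-AML3 and 75.4% in OCI-AML5. Fisher's exact test with Benjamini–Hochberg adjustment over all of them at 0.05 called 14.7% lower in OCI-AML3 and 3.86% higher. The promoter of SPI1, the gene of a myeloid master transcription factor, was at 11.5% in both lines, although MPO, a granule gene of myeloid precursors, was at 93.2% in OCI-AML3 and 90.3% in OCI-AML5. Intervals below are Wilson 95% intervals of pooled calls, which cover counting error only and can be too narrow, since calls on the same read are not independent. An intermediate level can come from a share of the cells or a share of the alleles, and these cannot be told apart.

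Promoters were taken as 2000 bp to both sides of the first TSS, meaning the most upstream one of a gene. There CADM1 stood out with 10.1% in OCI-AML3 against 56.5% in OCI-AML5, a difference of -46.4 percentage points. CADM2 followed with 18.4% against 40.4%, a difference of -22.0 points. By pooled calls in place of the mean over sites, CADM2 differed by -19.1 points and missed the size rule, and over the windows of every annotated TSS CADM1 differed by -18.4 points and CADM2 by -18.1. As defined here, these 2 of the 10 genes were lower in OCI-AML3 by more than 20 points and 0 were higher by that much, beside 8.61% and 1.79% of the 19667 protein-coding promoters with at least 10 covered CpG dinucleotides. The study of these lines already lists CADM1 among genes both hypomethylated and more highly expressed in OCI-AML3. It also gives CADM1 primers for quantitative PCR of transcripts. The place of CADM1 in this count is therefore not an independent result. The difference was negative in 8 of the 10 genes, with a median of -4.98 points beside -4.68 over all promoters. The upper quartile over all promoters was -1.43 points, so most of them were negative too. NECTIN3 went the other way, with 34.9% in OCI-AML3 and 20.7% in OCI-AML5, and NECTIN4 was nearly level at 88.7% and 87.1%.

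Ordered by the pooled share of methylated calls, the promoters ran in OCI-AML3 from NECTIN2 (5.74%) through CADM1 (8.43%), NECTIN1 (8.68%), CADM2 (19.7%), PVR (21.3%), CADM4 (23.9%), CADM3 (31.1%) and NECTIN3 (33.7%) to CRTAM (75.7%) and NECTIN4 (88.4%). The intervals of neighbors overlapped for CADM1 and NECTIN1, for CADM2 and PVR and for CADM3 and NECTIN3. In OCI-AML5 the order was NECTIN2 (10.9%), NECTIN1 (15.3%), NECTIN3 (22.1%), PVR (29.97%), CADM3 (34.4%), CADM4 (38.2%), CADM2 (38.8%), CADM1 (58.2%), CRTAM (83.9%) and NECTIN4 (86.7%). There the intervals overlapped for CADM4 and CADM2 and for CRTAM and NECTIN4. CADM1 thus stood second in OCI-AML3 and eighth in OCI-AML5, while NECTIN2 was lowest and CRTAM and NECTIN4 were highest in both lines.

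The sequence around the first TSS differed among the genes in the same way as this order at its upper end. In 1001 bp centered on that TSS, the ratio of observed to expected CpG dinucleotides was lowest for CRTAM (0.257, 11 CpG dinucleotides) and NECTIN4 (0.289, 26). It was highest for NECTIN1 (0.909, 129), CADM4 (0.833, 121) and NECTIN2 (0.796, 92). CADM1 was at 0.760 with 61, CADM2 at 0.691 with 73, PVR at 0.655 with 69, CADM3 at 0.528 with 60 and NECTIN3 at 0.399 with 19. The canonical TSS of NECTIN3 lies 1745 bp further downstream, and 98 CpG dinucleotides were covered within 500 bp of it. The CpG-poor promoters of CRTAM and NECTIN4 were those with the highest level in both lines. This is a description over 10 genes.

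Over the windows of every annotated TSS, 2653 CpG dinucleotides of the 10 genes were tested, and 462 (17.4%) were called lower in OCI-AML3 and 164 (6.18%) higher by Fisher's exact test. Among such windows of all protein-coding genes, 12.5% were called lower and 4.12% higher. Without CADM1 the counts were 290 (13.5%) lower and 144 (6.69%) higher, so the excess of lower calls over that background lay largely in CADM1. Without NECTIN3 they were 439 (18.1%) lower and 112 (4.63%) higher, so the excess of higher calls lay largely in NECTIN3. In the gene bodies outside these windows 10639 were tested, with 1126 (10.6%) lower and 895 (8.41%) higher, beside 13.3% and 2.96% for all protein-coding gene bodies. CADM2 and CADM1 held 572 and 251 of the 895 higher calls. Without CADM2 the counts were 903 (15.8%) lower and 323 (5.66%) higher, and without NECTIN3 they were 811 (8.20%) lower and 892 (9.02%) higher.

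CADM1 (ENSG00000182985, hg19 chromosome 11, 115039938 to 115375675, minus strand) encodes the adhesion protein that CRTAM binds. In its promoter window 202 CpG dinucleotides were covered, at 47.6 (OCI-AML3) and 32.5 (OCI-AML5) reads per CpG. The pooled share of methylated calls was 8.43% (7.89 to 9.003) in OCI-AML3 and 58.2% (57.1 to 59.4) in OCI-AML5. In OCI-AML3 178 of the 202 had a level below 20%, against 28 in OCI-AML5. Fisher's exact test called 145 lower in OCI-AML3 and 2 higher, and 0.661% of all promoters had a more negative difference than CADM1.

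The difference of CADM1 lay mainly downstream of the TSS. In the 2000 bp downstream of the first TSS, which hold the start of the transcript, the level was 1.20% in OCI-AML3 and 54.9% in OCI-AML5 over 156 CpG dinucleotides, of which 130 were called lower and 0 higher. In the 2000 bp upstream it was 40.3% and 62.1% over 46. Around the canonical TSS, 542 bp further downstream, 11 of 1493 calls within 250 bp were methylated in OCI-AML3, a share of 0.737% (0.412 to 1.31), against 554 of 994 in OCI-AML5, 55.7% (52.6 to 58.8). The longest stretch near this TSS in which a running mean over 5 CpG dinucleotides stayed below 20% measured 3320 bp in OCI-AML3, from 1062 bp upstream to 2257 bp downstream, and 157 bp in OCI-AML5. OCI-AML3 therefore held a broad unmethylated region where OCI-AML5 had a mixed one, with levels of single CpG dinucleotides spread from near 0 to 100%.

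**Figure D1:**
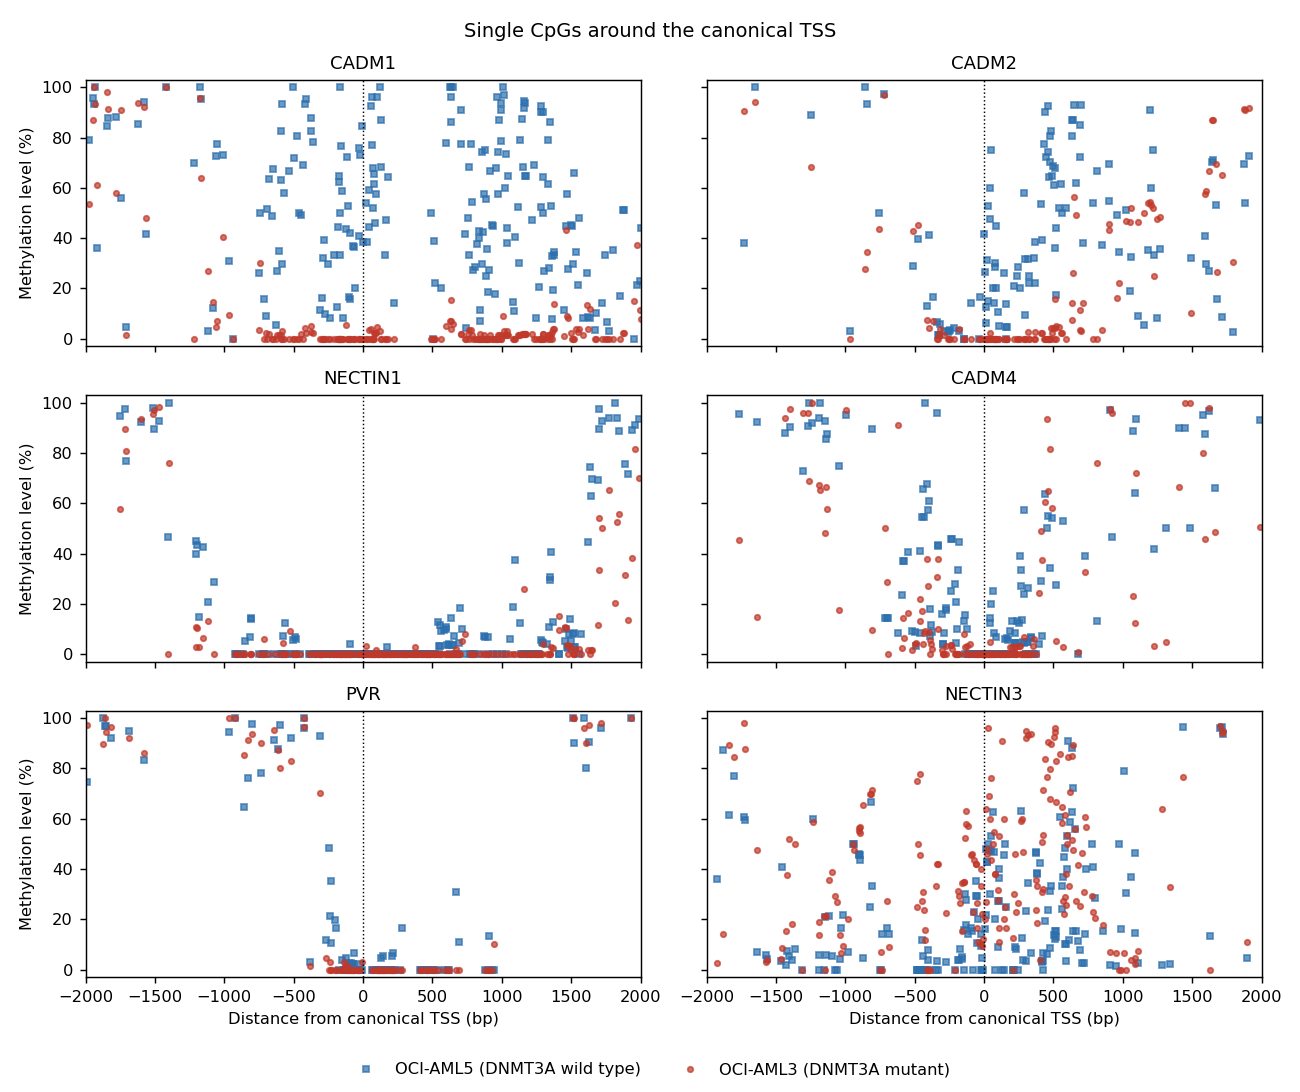
Methylation level (%) of every covered CpG dinucleotide within 2000 bp of the canonical TSS, against its distance from that TSS in bp along the direction of transcription, for CADM1, CADM2, NECTIN1, CADM4, PVR and NECTIN3 (circles, OCI-AML3; squares, OCI-AML5). The circles of CADM1 lie near 0 from about 1000 bp upstream to 1500 bp downstream, where the squares scatter over the whole range, and NECTIN1 is near 0 in both lines around the TSS.

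The longest run of consecutive called CpG dinucleotides in CADM1 held 30 in 226 bp of intron 1, 1396 to 1621 bp downstream of the first TSS. Its sequence is shown because every CpG in it was called lower, read from hg19 chr11:115374054-115374279 on the minus strand, 5′ to 3′, with CpG dinucleotides in capitals.
CADM1 intron 1: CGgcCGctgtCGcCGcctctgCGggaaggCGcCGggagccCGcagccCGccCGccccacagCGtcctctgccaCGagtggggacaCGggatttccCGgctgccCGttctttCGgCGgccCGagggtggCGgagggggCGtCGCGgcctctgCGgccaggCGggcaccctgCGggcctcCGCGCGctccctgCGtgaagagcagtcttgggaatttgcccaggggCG
Over these 30 CpG dinucleotides, 19 of 1931 calls were methylated in OCI-AML3 and 535 of 911 in OCI-AML5. Single CpG dinucleotides lay between 0 and 9.09% in OCI-AML3 (median 0) and between 14.7 and 100% in OCI-AML5 (median 58.8%). Runs were found by the test itself, so that their levels describe where the calls lie, and here the largest adjusted p of the 30 was 0.0260 by Fisher's exact test with Benjamini–Hochberg adjustment. GC made up 76.1% of this sequence, and the depth per CpG was 64.4 reads in OCI-AML3 and 30.4 in OCI-AML5. Depth was higher in OCI-AML3 in 9 of the 10 promoter windows, and its part in the differences was not tested.

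The difference was found at the upstream start sites of CADM1. Of its 15 annotated start sites, 5 lay within 568 bp of each other at the upstream end, and their windows differed by -46.4 to -44.2 points. The other 10 lay between 217478 and 325844 bp further downstream, and their windows differed by -2.39 to 9.39 points. In the gene body outside all TSS windows the level was 62.2% in OCI-AML3 and 55.4% in OCI-AML5 over 1934 CpG dinucleotides, with 251 called higher and 95 lower. The promoter and the body of CADM1 thus differed in opposite directions between the lines. A run of 8 CpG dinucleotides in intron 1, 6206 to 6507 bp downstream of the first TSS, was higher in OCI-AML3, with 87.8% against 43.3%.

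The 3 protein-coding promoters whose pair of levels lay closest to that of CADM1 were ZMYND8 (9.97% and 56.3% over 74 CpG dinucleotides), ZDBF2 (11.4% and 56.4% over 160) and OR51B6 (10.8% and 58.5% over 10). Their Euclidean distances from CADM1 were 0.2999, 1.29 and 2.13 percentage points over the 2 libraries.

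CADM2 (ENSG00000175161, chromosome 3, 85008140 to 86123579, plus strand), a member known from the nervous system, is the longest gene of the group with 1115440 bp. Its promoter window held 128 covered CpG dinucleotides, of which 58 were called lower in OCI-AML3 and 11 higher. In the 500 bp downstream of the TSS the level was 0.468% in OCI-AML3 and 38.4% in OCI-AML5 over 48 CpG dinucleotides, and in the next 500 bp it was 14.0% and 60.3% over 25. Farther downstream the direction turned, and between 1500 and 2000 bp it was 68.6% and 42.9% over 12. Within 250 bp of the TSS, 2 of 1339 calls were methylated in OCI-AML3, a share of 0.149% (0.0410 to 0.543), against 138 of 779 in OCI-AML5, 17.7% (15.2 to 20.6). The unmethylated stretch was 1027 bp long in OCI-AML3 and 368 bp in OCI-AML5, where it ended 1 bp upstream of the TSS.

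The longest lower run in CADM2 held 18 CpG dinucleotides of exon 1, 370 to 519 bp downstream of the TSS, with 2.21% in OCI-AML3 against 65.5%. The run with the most CpG dinucleotides in the other direction held 6 in intron 1, 2778 to 2975 bp downstream, and it is shown to place this turn, from chr3:85010918-85011115 on the plus strand with CpG dinucleotides in capitals.
CADM2 intron 1: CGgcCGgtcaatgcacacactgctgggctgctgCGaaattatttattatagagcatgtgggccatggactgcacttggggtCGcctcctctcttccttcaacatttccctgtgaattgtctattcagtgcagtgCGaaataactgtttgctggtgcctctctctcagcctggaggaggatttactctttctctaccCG
From 5′ to 3′ the levels were 92.5, 95.2, 94.3, 78.6, 95.8 and 92.3% in OCI-AML3 and 36.4, 64.7, 53.6, 12.5, 35.3 and 10.0% in OCI-AML5. All 6 were higher in OCI-AML3, and the largest adjusted p was 0.00616 by Fisher's exact test with Benjamini–Hochberg adjustment.

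Along the body of CADM2 the level was higher in OCI-AML3 in 89 of 112 bins of 10 kb and lower in 23. The bin with the largest difference started 660 kb from the TSS and was 29.7 points higher in OCI-AML3, and the most negative one started at 1100 kb with -13.8 points. Over the whole body the level was 71.1% in OCI-AML3 and 64.6% in OCI-AML5 (4932 CpG dinucleotides), with 572 (11.6%) called higher and 223 (4.52%) lower. Over all protein-coding gene bodies the balance was opposite, with 2.96% higher and 13.3% lower.

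**Figure D2:**
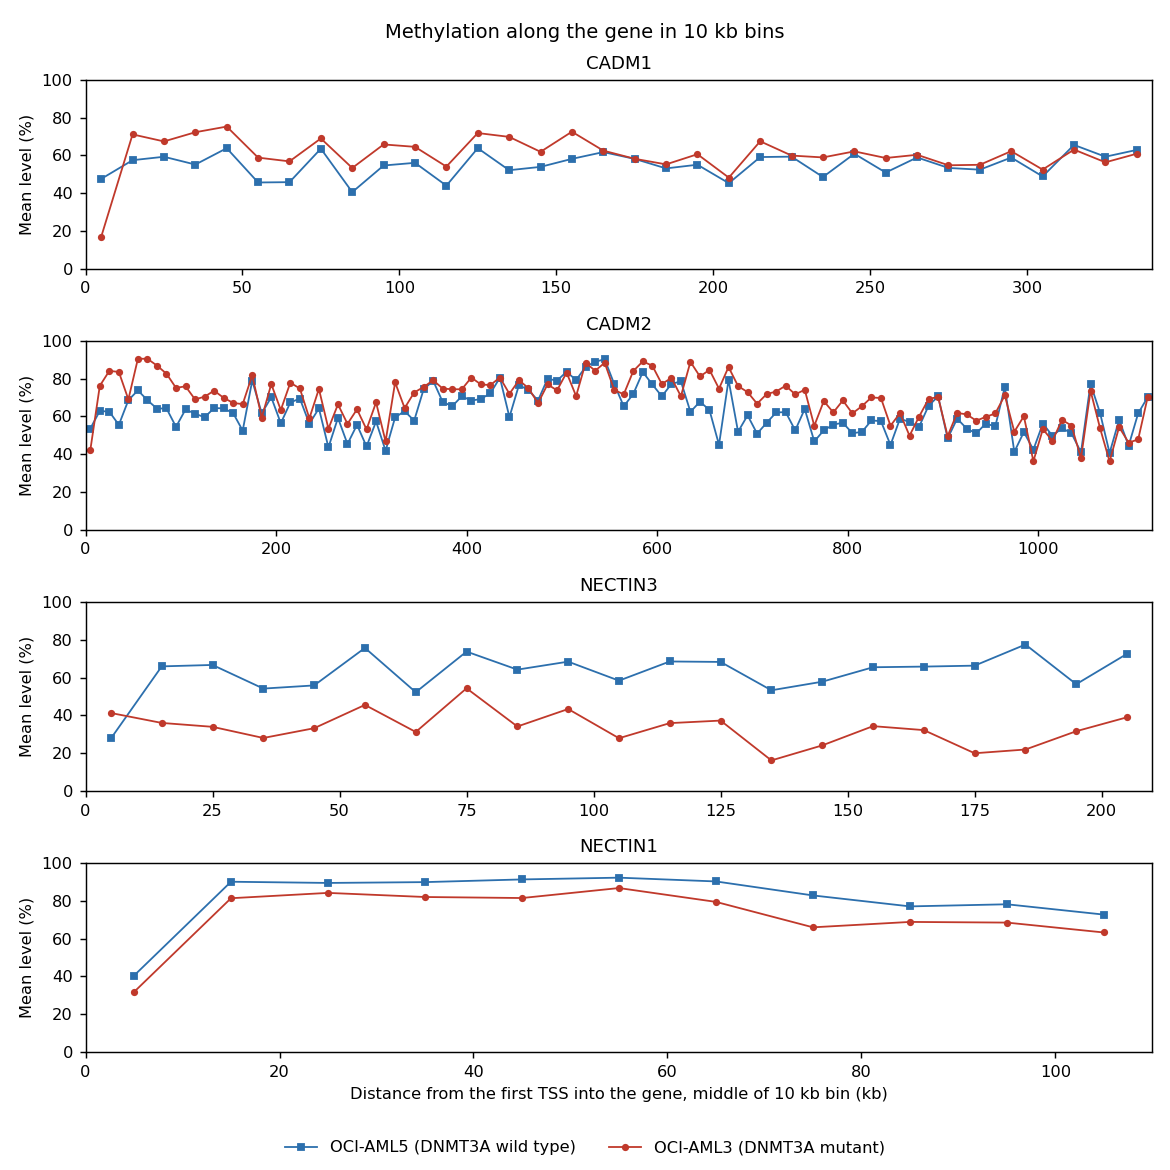
Mean methylation level (%) in 10 kb bins against distance from the first TSS into the gene (kb) for CADM1, CADM2, NECTIN3 and NECTIN1 (circles, OCI-AML3; squares, OCI-AML5). OCI-AML3 lies below OCI-AML5 in the first bin of CADM1 and above it in 30 of the 34 bins, below it in 20 of the 21 bins of NECTIN3, and below it in all 11 bins of NECTIN1.

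CADM3 (ENSG00000162706, chromosome 1, 159141399 to 159173103, plus strand) and CADM4 (ENSG00000105767, chromosome 19, 44126520 to 44144002, minus strand) are known as partners across the contact of axon and Schwann cell. The CADM3 promoter was at 35.4% in OCI-AML3 and 37.3% in OCI-AML5 over 109 CpG dinucleotides, with 16 called lower and 17 higher. Within 250 bp of its first TSS, 736 of 1352 calls were methylated in OCI-AML3 (54.4%, 51.8 to 57.1) and 315 of 684 in OCI-AML5 (46.1%, 42.3 to 49.8). A run of 5 CpG dinucleotides from 12 bp upstream to 17 bp downstream of this TSS was at 68.5% in OCI-AML3 and 27.6% in OCI-AML5, while the 2000 bp upstream were lower in OCI-AML3, 47.9% against 64.1% over 22. The CADM3 body was lower too, 44.3% against 56.2%, with 70 called lower and 16 higher of 259, and its longest lower run, 6 CpG dinucleotides in exon 3, was at 8.52% and 58.2%. The gene AIM2 on the other strand overlaps the CADM3 promoter window.

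The CADM4 promoter was at 18.4% in OCI-AML3 and 28.7% in OCI-AML5, with 38 CpG dinucleotides called lower and 7 higher of 166. Within 250 bp of the TSS, 17 of 1897 calls were methylated in OCI-AML3 (0.896%, 0.560 to 1.43) and 90 of 1039 in OCI-AML5 (8.66%, 7.10 to 10.5). The unmethylated stretch of CADM4 measured 948 bp in OCI-AML3 and 390 bp in OCI-AML5. The opposite direction appeared inside the gene, near an annotated start site 13879 bp downstream, where 8 CpG dinucleotides of exon 5 were at 93.5% in OCI-AML3 and 56.3% in OCI-AML5. In the window of that start site 24 were called lower and 29 higher of 145. The body of CADM4 outside the windows was at 73.6% and 85.4%, and a run of 6 in its intron 1 was at 23.8% and 82.0%.

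NECTIN1 (ENSG00000110400, chromosome 11, 119494120 to 119599910, minus strand), known also as an entry receptor of herpes simplex virus, had an unmethylated TSS in both lines. Within 250 bp of its first TSS, 2 of 3456 calls were methylated in OCI-AML3 (0.0579%, 0.0159 to 0.211) and 2 of 2161 in OCI-AML5 (0.0925%, 0.0254 to 0.337). Of the 74 CpG dinucleotides there 0 were called in either direction. The 26 called lower in the whole window, beside 0 higher, lay toward its edges. Between 1500 and 2000 bp downstream the level was 24.5% in OCI-AML3 and 59.7% in OCI-AML5, with 15 of 24 called lower. The unmethylated stretch measured 2850 bp in OCI-AML3 and 2415 bp in OCI-AML5, and the longest run, 15 CpG dinucleotides in intron 1, was at 28.7% and 80.9%. NECTIN1-DT, a noncoding gene on the other strand, starts 383 bp upstream in the same unmethylated stretch. The NECTIN1 body was lower in OCI-AML3 in all 11 bins, with 76.1% against 85.9%. Of its 1380 CpG dinucleotides, 197 (14.3%) were called lower and 20 (1.45%) higher, beside 13.3% and 2.96% over all protein-coding gene bodies. Of those bodies, 25.7% had a more negative difference than NECTIN1. Outside the gene, within 500 kb of the first TSS on each side, the difference was -12.55 points.

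NECTIN2 (ENSG00000130202, chromosome 19, 45349432 to 45392480, plus strand), a ligand of the lymphocyte receptors TIGIT and PVRIG, was at 6.07% in OCI-AML3 and 10.4% in OCI-AML5 in its promoter window, with 21 called lower and 9 higher of 242, and its TSS was likewise unmethylated. The 150 bp just upstream are shown as an example of a CpG-dense promoter nearly free of methylation in both lines, from chr19:45349282-45349431 on the plus strand with CpG dinucleotides in capitals.
NECTIN2 upstream: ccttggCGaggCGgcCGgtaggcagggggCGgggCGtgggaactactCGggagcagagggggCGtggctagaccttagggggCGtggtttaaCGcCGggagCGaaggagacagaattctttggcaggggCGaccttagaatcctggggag
Of its 12 CpG dinucleotides, 1 of 489 calls was methylated in OCI-AML3 and 0 of 266 in OCI-AML5. The shares within 250 bp of this TSS were 0.156% (0.0530 to 0.457) and 0.0725% (0.0128 to 0.410). The flanks differed in both directions. Between 2000 and 1500 bp upstream of the canonical TSS the level was 8.60% in OCI-AML3 and 47.2% in OCI-AML5, with 15 of 28 called lower. Between 500 and 1000 bp downstream it was 11.1% and 0.399%, with 3 of 23 called higher. The unmethylated stretch was 2707 bp long in OCI-AML3 and 3082 bp in OCI-AML5, running from 1911 bp upstream to 795 bp downstream of the canonical TSS in OCI-AML3 and from 1541 bp upstream to 1540 bp downstream in OCI-AML5.

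The NECTIN2 body was at 80.9% in OCI-AML3 and 88.8% in OCI-AML5. Of its 602 CpG dinucleotides, 88 (14.6%) were called lower and 21 (3.49%) higher, beside 13.3% and 2.96% over all protein-coding gene bodies. Inside it, 2 intronic runs differed by more than 70 points in opposite directions. The upstream one held 13 CpG dinucleotides of intron 1 (chr19:45359510-45360358), with 84.5% in OCI-AML3 and 9.05% in OCI-AML5. The downstream one held 20 in intron 2, with 3.01% in OCI-AML3 and 74.0% in OCI-AML5. Part of the intron 1 run is shown because it is the single run of NECTIN2 higher in OCI-AML3, from chr19:45359740-45360039 on the plus strand with CpG dinucleotides in capitals.
NECTIN2 intron 1: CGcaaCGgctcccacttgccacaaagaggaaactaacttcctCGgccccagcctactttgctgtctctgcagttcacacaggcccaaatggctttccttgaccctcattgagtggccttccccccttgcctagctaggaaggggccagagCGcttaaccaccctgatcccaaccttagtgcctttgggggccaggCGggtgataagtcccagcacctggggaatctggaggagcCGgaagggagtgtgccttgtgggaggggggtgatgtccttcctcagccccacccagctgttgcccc
In the intron 1 sequence the 6 levels were 78.4, 35.2, 29.6, 100, 92.9 and 100% in OCI-AML3, while in OCI-AML5 5 were 0 and 1 was 3.13%. The depth at these 6 fell to 6 reads in OCI-AML3 and 11 in OCI-AML5 at the last of them. In the intron 2 run the levels reached at most 11.4% in OCI-AML3 and were at least 43.3% in OCI-AML5. The largest adjusted p was 0.000800 in the intron 1 run and 0.0231 in the intron 2 run by Fisher's exact test with Benjamini–Hochberg adjustment. A stretch of 26 letters in the intron 2 run occurred 1248 times on the 4 chromosomes that hold the members, so it is repeated sequence, and its part in read placement was not tested. The mean depth over the intron 2 run was 30.9 reads in OCI-AML3 and 29.1 in OCI-AML5.

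**Figure D3:**
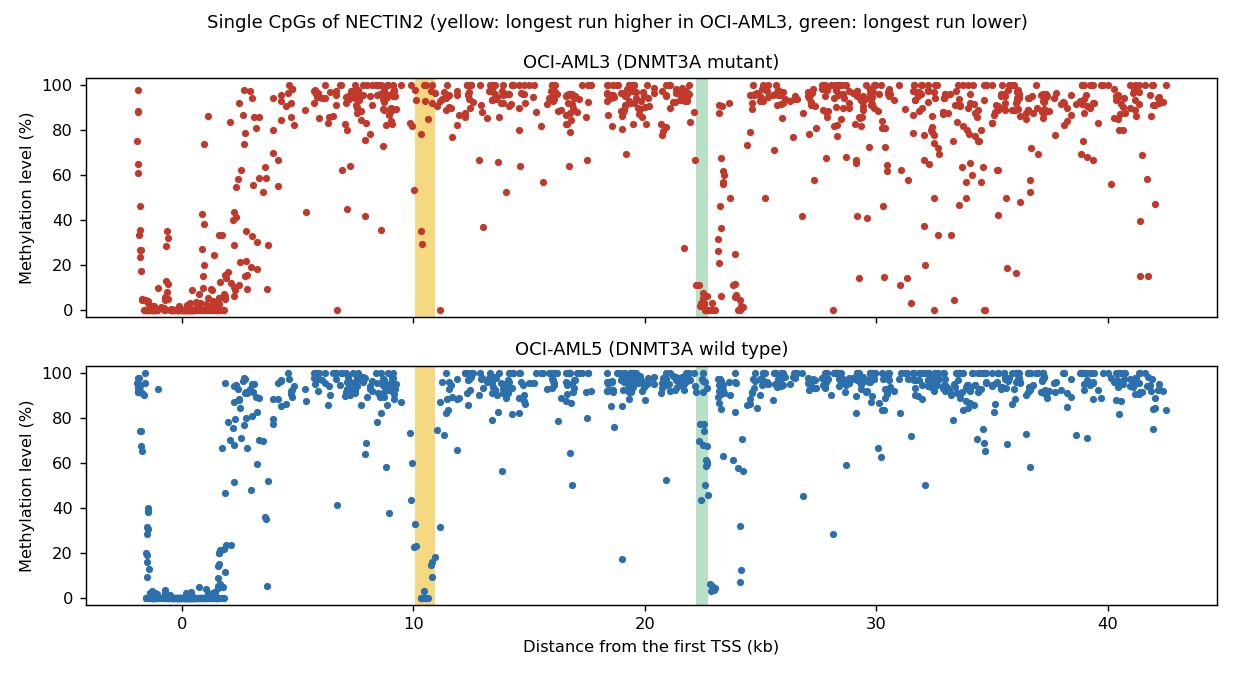
Methylation level (%) of the covered CpG dinucleotides of NECTIN2 against distance from the first TSS (kb), OCI-AML3 above and OCI-AML5 below. The yellow band marks the intron 1 run (84.5% in OCI-AML3, 9.05% in OCI-AML5) and the green band the intron 2 run (3.01% and 74.0%), while the TSS at 0 kb is near 0 in both lines.

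NECTIN3 (ENSG00000177707, chromosome 3, 110788918 to 110994410, plus strand), which binds NECTIN1 and NECTIN2 on the neighboring cell, was the member whose promoter was most methylated in OCI-AML3 relative to OCI-AML5. Its difference of 14.1 points, 34.9% against 20.7% over 127 CpG dinucleotides, was above that of 96.8% of all promoters but did not reach 20 points. Around the canonical TSS, 1745 bp further downstream, the level within 500 bp was 40.7% in OCI-AML3 and 17.1% in OCI-AML5, with 29 of 98 called higher and 1 lower. The longest run, 16 CpG dinucleotides 2159 to 2267 bp downstream of the first TSS, was at 72.5% in OCI-AML3 and 13.0% in OCI-AML5. Just before it, in the coding part of exon 1, lie 6 CpG dinucleotides that were all called higher, shown from chr3:110790939-110790999 on the plus strand with CpG dinucleotides in capitals.
NECTIN3 exon 1: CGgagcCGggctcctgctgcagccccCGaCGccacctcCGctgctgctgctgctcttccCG
From 5′ to 3′ their levels were 60, 46.9, 92.1, 94.7, 93.3 and 93.9% in OCI-AML3 and 12.5, 4, 23.3, 3.33, 34.5 and 6.67% in OCI-AML5. The noncoding gene NECTIN3-AS1 overlaps this promoter window on the other strand. The 2000 bp upstream of the first TSS went the other way, with 44.1% in OCI-AML3 and 62.1% in OCI-AML5 over 10 CpG dinucleotides.

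The body of NECTIN3 was the 1 of the 10 lower by more than 20 points, and 0 were higher by that much, beside 7.67% and 0.509% of 17276 protein-coding gene bodies. Its level was 34.9% in OCI-AML3 and 65.8% in OCI-AML5 over 748 CpG dinucleotides, with 315 (42.1%) called lower and 3 higher. Only 2.28% of gene bodies had a more negative difference. In the 10 kb bins OCI-AML3 was lower in 20 of 21, by up to 55.6 points in the bin starting at 180 kb, and higher in the first bin, which holds 10 of the 11 annotated start sites. Outside the gene, within 500 kb of the first TSS on each side, the levels were 37.1% and 67.1%, so that the difference went beyond the gene.

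NECTIN4 (ENSG00000143217, chromosome 1, 161040788 to 161059348, minus strand), a nectin of epithelia and placenta, was methylated at its TSS in both lines. Within 250 bp of the TSS the share was 88.0% (86.5 to 89.4) in OCI-AML3 and 83.6% (81.5 to 85.5) in OCI-AML5, with 3 of 19 CpG dinucleotides called higher and 0 lower. Its exons outside the TSS windows were at 66.8% in OCI-AML3 and 90.7% in OCI-AML5, with 39 of 56 called lower, and its introns at 79.4% and 84.2%, with 10 of 113 called lower. The longest run held 27 CpG dinucleotides in the coding sequence of exon 2 and carried 27 of the 49 lower calls of the NECTIN4 body. Its level was 63.0% in OCI-AML3 and 94.5% in OCI-AML5, with single levels between 43.1 and 79.4% in OCI-AML3 and between 79.7 and 100% in OCI-AML5. The largest adjusted p was 0.0429 by Fisher's exact test with Benjamini–Hochberg adjustment. Depth was high here, at 116 (OCI-AML3) and 74.6 (OCI-AML5) reads per CpG. Outside the gene, within 500 kb of the first TSS on each side, it was 64.2 and 52.2. The part of depth in the number of calls was not tested.

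PVR (ENSG00000073008, chromosome 19, 45147098 to 45169430, plus strand), the poliovirus receptor and a ligand of CD226, TIGIT and CD96, had the fewest runs. Its promoter was at 24.6% in OCI-AML3 and 26.8% in OCI-AML5 over 99 CpG dinucleotides, with 7 called lower and 1 higher, and its body at 89.3% and 92.7%, with 7 lower and 1 higher of 198. The unmethylated stretch was 1180 bp and 1116 bp long. Its single run of called CpG dinucleotides was 50 bp long and ended 82 bp upstream of the first TSS, at the edge of this stretch, shown from chr19:45146967-45147016 on the plus strand with CpG dinucleotides in capitals.
PVR upstream: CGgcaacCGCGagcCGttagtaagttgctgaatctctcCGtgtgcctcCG
From 5′ to 3′ its 6 levels were 0, 2.94, 0, 0, 0 and 0% in OCI-AML3 and 48.3, 21.4, 10.7, 35.1, 19.6 and 16.4% in OCI-AML5. The largest adjusted p of the 6 was 0.0130 by Fisher's exact test with Benjamini–Hochberg adjustment, at a depth of 94.2 and 56.3 reads per CpG.

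CRTAM (ENSG00000109943, chromosome 11, 122709208 to 122743351, plus strand), the receptor of CADM1 on activated lymphocytes, was methylated in both lines. Its promoter was at 76.0% in OCI-AML3 and 84.0% in OCI-AML5 over 38 CpG dinucleotides, with 6 called lower and 1 higher. Within 500 bp of the TSS the shares were 85.5% (80.2 to 89.5) and 86.7% (81.5 to 90.7), and their intervals overlapped, although of the 11 CpG dinucleotides 1 was called lower and 1 higher. Its body was at 68.5% and 83.7%, with 49 called lower and 3 higher of 258. The longest run, 6 CpG dinucleotides across exon 3 and intron 3, was at 31.9% in OCI-AML3 and 91.3% in OCI-AML5.

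The gene bodies together differed by a median of -10.5 points, beside -4.85 over all protein-coding gene bodies. In OCI-AML3 8 of the 10 were lower. The upper quartile over all protein-coding gene bodies was -2.45 points, so most of them were lower too. The surroundings were 500 kb on each side of the first TSS without the gene and its TSS windows. For CADM2, which is longer than 500 kb, they therefore lay upstream only. The surroundings differed in the same direction as the body in each of the 10, from -30.04 points around NECTIN3 to 8.33 around CADM1. The surroundings of CADM3 were nearly level at 69.5% and 69.6% while its body was 11.9 points lower. Across the 10 genes the differences of body and surroundings had a Pearson r of 0.90, and those of promoter and body an r of -0.83. The largest promoter differences came with a body difference of opposite sign. These were CADM1 (-46.4 and 6.81 points), CADM2 (-22.0 and 6.51) and NECTIN3 (14.1 and -30.9). In the other genes except NECTIN4 both differences were negative, and the r without CADM1, CADM2 and NECTIN3 was not computed. These are descriptions over genes of the same 2 libraries, and the surroundings of PVR and NECTIN2 overlap.

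Runs of at least 3 consecutive called CpG dinucleotides with gaps of at most 300 bp numbered 178 in the 10 genes, 122 lower in OCI-AML3 and 56 higher. The lower share was 68.5%, beside 84.7% of the 333863 runs of the genome. CADM2 was the member with more runs higher (29) than lower (13), and CADM1 had 16 higher and 19 lower. NECTIN3 had 34 lower and 5 higher, and NECTIN1 18 lower and 0 higher.

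The genes that work with these proteins were taken as a list of 16. Their promoters differed by a median of -3.67 points, and 14 of 16 were negative, beside an upper quartile of -1.43 points over all promoters. Beside 8.61% of all promoters, 1 of the 16 was lower by more than 20 points. This was CD96, a lymphocyte receptor of PVR, with 37.9% in OCI-AML3 and 94.5% in OCI-AML5 over 18 CpG dinucleotides and 11 called lower. TIGIT, another PVR receptor, followed with 69.1% and 87.5%, and CD226, the activating receptor, with 77.1% and 92.3%. Like CADM1, CD226 is already listed by the study among genes both hypomethylated and more highly expressed in OCI-AML3. Around the canonical TSS the differences were -42.9 points for CD96, -6.03 for TIGIT and -26.3 for CD226, so that there CD226 also passed 20 points. In the gene bodies outside the TSS windows they were -40.3 points for CD96, -24.4 for TIGIT and 2.83 for CD226. The difference of CD96 was thus not confined to its promoter. CD96 lies on chromosome 3 like NECTIN3, whose surroundings differed by -30.04 points. Whether the CD96 difference belongs to a wider region was not tested. Around the first TSS the median was -16.8 points over the 4 lymphocyte receptors (with PVRIG) and -2.49 over 6 cytoplasmic partners (AFDN, PARD3, EPB41L3, CASK, MPP3 and PALS2). It was -4.30 over 6 genes of the cadherin and tight junctions (CDH1, CTNNA1, CTNNB1, CTNND1, F11R and TJP1). Among these CTNNB1 was at 88.8% in OCI-AML3 and 95.8% in OCI-AML5 around the first TSS, but at 9.22% and 7.54% around the canonical TSS. TJP1 differed by 0.984 points around the first TSS and by -15.9 around the canonical TSS, while CDH1 was the same in both. In the window around the first TSS the ligand genes were at 24.6% in OCI-AML3 and 26.8% in OCI-AML5 for PVR and at 6.07% and 10.4% for NECTIN2.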

How the data were processed

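Per the labels and the study's methods, DNA was bisulfite converted after ligation of adaptors and sequenced paired-end, and alignment to hg19 and methylation calling were done by the authors with Bismark on Bowtie 0.12.8. The deposited tables hold, per CpG dinucleotide, 2 counts (reads methylated, reads unmethylated) summed over both strands and not normalized. Duplicate removal is not given in the sources used here. The column of methylated calls was identified from mitochondrial DNA.

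Levels were computed where both lines had more than 5 reads, and regions were compared by their mean level with a size rule of 20 points and no test. Single sites were tested with Fisher's exact test (two-sided) and Benjamini–Hochberg adjustment over all 24454751 nuclear sites, after the code was tested on simulated data. Genes are from GENCODE release 44 lifted to GRCh37, and sequences from that assembly. The named genes are the 10 members, partners with a promoter difference over 20 points or else the 3 largest, the 3 promoters closest to CADM1, and the longest run of each member in each direction. Members and lists were chosen with earlier results of these data known. Some sequences and 1 marker gene are not reported here. Python 3.11.15, numpy 2.4.6, scipy 1.17.1, pandas 2.3.3 and numba 0.67.0 were used.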

Additional observations from a re-analysis of the deposited data

How the results depend on the processing

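Of 32 alternatives to the counts reported, 25 stayed within 1.5 times. The number of promoters lower by more than 20 points, 2 as reported, was 1 with shares of pooled calls, 1 with 2000 bp upstream only, 1 with a rule of 30 points and 0 over every annotated TSS. Gene bodies lower by more than the rule numbered 1 at 20 points and 5 at 10 points. Promoter CpG dinucleotides called higher fell from 164 to 74 with the most upstream TSS only, and runs from 178 to 58 with at least 5 CpG dinucleotides, both by construction of a smaller set. Promoter differences kept their sign in 66 of 70 alternatives and gene body differences in 30 of 30. The exceptions were NECTIN2 (3.002 points with 1000 bp on either side), NECTIN3 (-18.0 points with 2000 bp upstream only) and NECTIN4 (-3.04 points with 2000 bp upstream only and -1.82 over every annotated TSS). CADM1 ranged from -49.8 to -18.4 points and CADM2 from -32.5 to -8.13. Of 40 alternatives for the unmethylated stretches, chosen after seeing the data, 36 stayed within 1.5 times, and the CADM1 stretch in OCI-AML5 reached 246 bp with a limit of 30%. No paired analysis was possible because each line had 1 library, and for the same reason no library could be left out. Depth limits a single CpG to shares above about 10%.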

Other observations

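The promoters of 6 myeloid genes differed between the lines by less than 5 points in 5 cases (SPI1, MPO, CD33, CSF3R and LYZ). In CEBPE, a transcription factor of late granulocyte development, the promoter was at 66.6% in OCI-AML3 and 24.7% in OCI-AML5, with 46 of 69 CpG dinucleotides called higher and 0 lower by Fisher's exact test. Of the lymphoid genes, CD3E was at 75.3% and 91.5% and CD79A at 69.5% and 69.6%. Of the epithelial genes, EPCAM was at 62.0% and 71.3%, KRT8 at 43.0% and 56.7% and KRT19 at 44.8% and 55.3%. Around the canonical TSS EPCAM turned to 84.5% in OCI-AML3 and 73.2% in OCI-AML5, and KRT8 was at 57.3% and 84.3%.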
